A study of Mus musculus with 4 samples.

Results

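The genes described here encode the FOS, JUN and ATF proteins that make up the AP-1 transcription factors, and they were examined in the open chromatin of sorted mouse heart nuclei. The 10 genes Fos, Fosb, Fosl1, Fosl2, Jun, Junb, Jund, Atf3, Batf and Jdp2 were taken by name from 21755 protein-coding genes of the GENCODE annotation of mm10. ATAC-Seq, in which the transposase Tn5 inserts sequencing adapters into accessible DNA, had been run on nuclei from whole hearts of male C57BL/6 mice aged 8 to 12 weeks. All mice carried both NuTRAP and Cdh5-Cre: the promoter of Cdh5, the gene of an endothelial junction protein, drives Cre. Cre switches on the GFP tag that NuTRAP puts on ribosomes, so GFP marks cells of endothelial descent. The nuclei were sorted by this GFP. GFP+ (endothelial) and GFP- (non-endothelial) nuclei had 2 libraries each, but the authors called peaks on both replicates together, giving 78912 peaks in the GFP- list and 65008 in the GFP+ list. Reads were not counted per peak or per library in these lists, and library depth is therefore not analysed here. No difference below has a replicate check, and no test was made.

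AP-1 is a pair of leucine zipper proteins: JUN proteins pair with each other or with FOS and ATF proteins, whereas FOS proteins need a JUN partner to bind DNA. Fos, Fosb, Jun, Junb and Atf3 are immediate early genes, transcribed within minutes of a growth factor, stretch or stress signal by factors that are already on their promoters, such as SRF with its ELK partners and CREB/ATF dimers. In heart the pathway is known for its response to pressure load and ischaemia, and in endothelium for its response to flow and cytokines. SRF binds a CArG box, CREB/ATF dimers bind the cyclic AMP response element (CRE, TGACGTCA), and AP-1 itself binds TGACTCA.

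The start regions of Fos, Junb, Fosb and Jund are shown first because a summit window there held a CArG box or a CRE. At Fosb that window belongs to the smaller of its GFP- start peaks, and the summit at the larger peak and in GFP+ held no word. The CArG box of Fosb still lay within the GFP+ start peak, away from its summit. The start windows of Jun, Fosl1, Jdp2 and the inner starts of Atf3 held none of the words searched, and that of Fosl2 is described below. The sequences are read from GRCm38.p6 on the strand of the gene, 5′ to 3′, in the 200 bp around a peak's summit, and capitals mark the words that were searched on both strands. At Fos, Junb and Fosb the capitals are a CArG box, and at Jund they are a CRE.
Fos, GFP- summit at -315 bp, chr12:85473475-85473674 (+): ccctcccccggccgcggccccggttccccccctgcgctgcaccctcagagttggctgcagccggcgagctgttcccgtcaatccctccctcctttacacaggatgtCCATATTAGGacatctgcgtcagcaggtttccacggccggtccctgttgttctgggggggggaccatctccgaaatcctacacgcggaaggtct
Junb, GFP- and GFP+ summit, chr8:84976550-84976749 (-): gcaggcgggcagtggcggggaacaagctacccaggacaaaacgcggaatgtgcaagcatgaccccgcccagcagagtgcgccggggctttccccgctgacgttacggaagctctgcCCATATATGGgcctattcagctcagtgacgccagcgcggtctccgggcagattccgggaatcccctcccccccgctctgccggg
Fosb, upstream GFP- summit, chr7:19310264-19310463 (-): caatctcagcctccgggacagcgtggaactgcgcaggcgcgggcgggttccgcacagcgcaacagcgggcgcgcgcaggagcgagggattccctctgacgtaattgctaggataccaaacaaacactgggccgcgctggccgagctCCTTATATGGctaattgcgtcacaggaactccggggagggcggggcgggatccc
Jund, GFP- summit at -142 bp, chr8:70698707-70698906 (+): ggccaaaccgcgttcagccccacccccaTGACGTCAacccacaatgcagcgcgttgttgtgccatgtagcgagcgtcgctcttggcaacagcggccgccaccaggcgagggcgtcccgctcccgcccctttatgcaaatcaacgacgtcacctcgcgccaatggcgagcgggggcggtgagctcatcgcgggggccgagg
The first base of the CArG box lay 309 bp upstream of the start of Fos, 266 bp upstream of that of Fosb, and 91 bp upstream of the inner start of Junb. The CRE of Jund lay 214 bp upstream of its start. The promoter of Jun, as RefSeq gives it for GRCm38.p6, held the CRE variant TGACATCA 45 bp upstream of the start, which is in capitals in the 250 bases before the start.
Jun, RefSeq promoter, chr4:95052223-95052472 (-): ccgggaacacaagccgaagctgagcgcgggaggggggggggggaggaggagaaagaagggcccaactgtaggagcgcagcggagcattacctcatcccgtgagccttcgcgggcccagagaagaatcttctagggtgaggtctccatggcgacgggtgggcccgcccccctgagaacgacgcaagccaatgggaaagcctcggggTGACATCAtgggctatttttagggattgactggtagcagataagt
Of the 10 genes, 9 matched an entry of the RefSeq promoter table, and Fosl1 did not. All 300 bases of each entry lay within a peak of both lists except at Batf, where 0 did. None of these entries held a CArG box, a CRE or an AP-1 word, and Jun alone held the CRE variant: the words shown at Fos, Junb, Fosb and Jund lie in summit windows outside them. Among all 32851 promoters of that table, 1.63% held a CArG box, 1.79% the CRE, 3.62% the CRE variant and 5.20% the AP-1 word. The other words searched were CAGGAAGT (ETS), CCATTGT (SOX17) and AACAGCTG (TCF21), which were in 3.33%, 3.66% and 1.59% of those promoters.

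Before the genes are described, the labels were set beside marker genes at the gene starts. Of 9 endothelial markers, 7 had a GFP+ and 5 a GFP- start peak, or 9 and 6 with any transcript start. Cdh5 was at rank 85.3 in GFP+ and 17.96 in GFP-, while Tek went the other way (54.1 and 81.1). All 5 fibroblast markers had a start peak in GFP- and 0 in GFP+, or 2 in GFP+ with any transcript start (Pdgfra at 87.0 and Col1a1 at 80.7), and the 4 mural markers had 4 and 2. All 6 cardiomyocyte markers had a start peak in both lists, at ranks 82.7 to 100 in GFP- and 86.02 to 100 in GFP+. Of the macrophage markers 1 of 4 (Cd68) had a start peak in each list, and of the lymphocyte markers 0 of 4. The part of each of these cell types in the results below was not tested.

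At their starts, most of the AP-1 genes were open in both populations, and several of them carried some of the largest peaks of their lists. A start peak reached within 250 bp of the start of the gene record. Peaks were ranked by area, which is the significance signal of the authors' caller summed over the length of a peak, as a percentile of their own list (100 is the largest). A peak was present at the start of 8 of the 10 genes in GFP- nuclei, against 56.9% of all protein-coding genes, and of 8 of 10 in GFP+ nuclei, against 54.8%. With any annotated transcript start it was 9 of 10 in both, against 61.8% and 59.8%. Because the nuclei were pooled, a smaller area from fewer open nuclei and one from less accessibility per nucleus cannot be told apart.

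**Figure D1:**
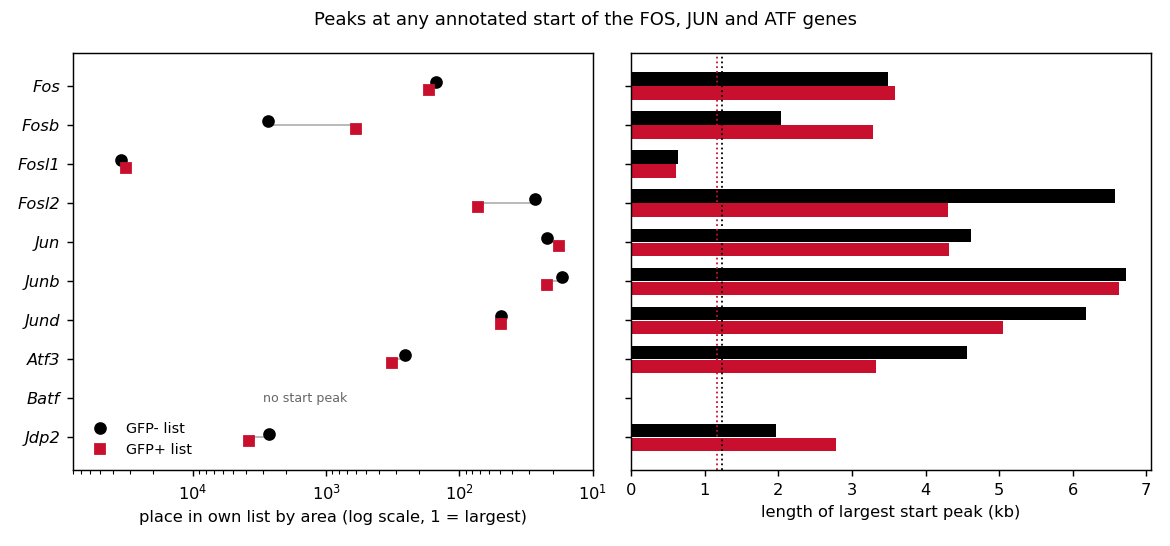
Left, place of each gene's largest start peak in its own list by area (log scale, 1 is the largest peak). Right, length of that peak in kb, with dotted lines at the median over all genes with a start peak. Black is GFP- and red GFP+, with 1 list per population and no error. Jun, Junb, Jund and Fosl2 lie among the 72 largest peaks of each list, Fosl1 lies near the middle of both, and Batf has no start peak.

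Of the FOS genes, Fos, whose protein is the archetypal short-lived partner of JUN, had a start peak of 3487 bp in GFP- (chr12:85471767-85475253), the 150th largest, at rank 99.81. In GFP+ the peak measured 3580 bp (chr12:85471766-85475345), was the 168th largest and had rank 99.74. The summits lay 10 bp apart, at -315 and -305 bp, so in both lists the summit window held the CArG box shown above. Peaks covered 40.3% of the Fos record in GFP- and 43.0% in GFP+.

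Fosb, which encodes FosB and its truncated splice form, had the largest difference toward GFP+ of the 8 genes, 2.54 points by the largest start peak of each list. In GFP- its start was split into a peak of 2030 bp at rank 96.54 (chr7:19307808-19309837) and one of 993 bp at rank 91.43 (chr7:19309940-19310932). In GFP+ a single peak of 3289 bp (chr7:19307393-19310681) spanned both positions at rank 99.08. The areas of the 2 GFP- peaks summed to 11706 and the GFP+ peak had 9781, on the scale of each list, and the summit at +1.42 kb, in an exon, was the same base in both. The rank given for GFP- is that of the larger of its 2 peaks. The direction depends on this choice: with the 2 areas summed, Fosb ranked lower in GFP+ than in GFP-.

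Fosl2, which encodes Fra-2, had the 27th largest peak of the GFP- list (6570 bp, chr5:32132567-32139136, rank 99.97). In GFP+ the same stretch was divided: the start peak of 4302 bp (chr5:32132602-32136903) was the 72nd largest at rank 99.89, and a second peak of 2082 bp followed at rank 78.6. The summits lay 4 bp apart, at -29 and -25 bp, and both windows held an AP-1 word that began 53 bp after the start. Fosl1, which encodes Fra-1 and is known as a late target of FOS itself, had the smallest start peaks of the members, of 631 bp at rank 55.76 in GFP- and 614 bp at rank 51.06 in GFP+. Its difference of -4.70 points was the largest among the 8 genes. All peaks over its record, not the start peaks alone, covered 5.75% of it in GFP- and 15.3% in GFP+.

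Of the JUN genes, Jun, the main target of the JNK kinases, had nearly equal places in the lists. Its start peak was 22nd in GFP- (4622 bp, chr4:95049747-95054368) and 18th in GFP+ (4316 bp, chr4:95049768-95054083), at rank 99.97 in both, and it covered 77.6% and 77.0% of the gene, which has no intron. Junb, often a weaker activator than Jun, had the 17th largest GFP- peak (6727 bp, chr8:84974824-84981550) and the 22nd largest GFP+ peak (6623 bp, chr8:84975346-84981968). The summit of Junb was the same base in both lists, at -108 bp from an annotated transcript start that lies 2176 bp inside the gene record. Jund, the JUN gene that most cells express without a stimulus, was 49th in both lists, with peaks of 6181 bp (chr8:70695843-70702023) and 5059 bp (chr8:70696166-70701224) that covered 100% of the record. The summits of Jund lay 6 bp apart, and both windows held the CRE.

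Of the remaining genes, Atf3, which is induced by many stresses and can repress its targets, had no peak at the start of the record, which is 47744 bp long. Its large peaks stood instead at inner transcript starts: 4557 bp in GFP- (chr1:191182206-191186762, 258th, rank 99.67) and 3331 bp in GFP+ (chr1:191182313-191185643, 320th, rank 99.51). These shared their summit base, at -145 bp from an inner start and +34.55 kb into the record. Jdp2, whose protein pairs with JUN and represses AP-1 targets, had a start peak of 1971 bp at rank 96.57 in GFP- and 2779 bp at rank 94.12 in GFP+. Batf, best known as a lymphocyte factor, had no peak at any annotated start in either list.

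Read together, 5 of the 10 genes had a start peak at or above rank 99 in both lists, against 2.61% of all protein-coding genes, or 6 of 10 against 2.92% with any transcript start. The start peaks were also long, with a median of 4055 bp in GFP- and 3941 bp in GFP+ against 1236 and 1163 bp over all genes with a start peak. Since area sums over length, a long peak ranks high by construction. Of the 8 genes, 6 had a lower rank in GFP+, against 71.6% of all genes with a start peak in either list, with a median difference of -0.04 points against -0.83. None of the 8 differed by more than 20 points (0 of 8), against 9.81% of all genes. With 8 genes, 0 is close to what that share would give. The median ranks of the 8 were 99.88 in GFP- and 99.82 in GFP+. That left little room for a higher rank by area, and there a move of many places is few points. The summit −log10 p was lower in GFP+ than in GFP- in each of the 9 genes with a peak at any start, for example 13.6 and 15.4 at Fos, against 87.5% of all genes with such a peak in both lists. Ranked by summit p-value, all 8 genes with a peak at the record start stood lower in GFP+, with a median difference of -1.34 points against -1.20 over all genes. Ranked by area per bp instead of area, 6 of the 8 genes stood lower in GFP+. The median difference of the 8 was then -5.99 points, against -1.68 over all genes.

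Away from the starts, the genes had further peaks in the body and in flanks of 50 kb. A peak went to its nearest protein-coding gene by the summit, and positions are given in kb from the start of the record, negative upstream. There were 48 such GFP- peaks, 22 upstream, 13 downstream and 13 in the body, and 38 such GFP+ peaks, 17 upstream, 8 downstream and 13 in the body. The largest belonged to Fos, Fosb and Atf3, beside the Atf3 peak at the inner starts.

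Fos had 13 of the GFP- peaks and 8 of the GFP+ peaks. The peak at -18.46 kb (chr12:85454736-85456130 in GFP-) stood at rank 98.5 in GFP- and 97.9 in GFP+, that at +12.22 kb at 95.95 and 96.31, and that at -37.52 kb, where Gm40477 starts, at 90.6 and 90.4. Fosb had peaks at -17.24 kb (94.85 and 94.50) and at -10.07 kb (92.2 and 91.9, with the same summit base), both inside the annotated noncoding gene D830036C21Rik. Atf3 had a peak at -6.39 kb, at the start of D730003I15Rik, at ranks 94.9 and 95.3. Ranks this near the top leave little room for a higher rank in the other list, though not for a lower one. What other genes show away from their starts at such ranks was not computed. At all 6 of these places the lists differed by less than 1 point. The summit windows of 3 of them are printed because they hold words, a CArG box at Fos and an AP-1 word at Fosb and Atf3, where the second run of capitals at Fosb is the word CCATTGT (SOX17) on the other strand.
Fos +12.22 kb, GFP- summit, chr12:85486009-85486208 (+): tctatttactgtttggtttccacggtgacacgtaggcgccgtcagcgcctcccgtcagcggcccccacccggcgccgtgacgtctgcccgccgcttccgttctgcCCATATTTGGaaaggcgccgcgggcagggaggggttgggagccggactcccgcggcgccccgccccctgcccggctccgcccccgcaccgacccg
Fosb -17.24 kb, GFP- summit, chr7:19327191-19327390 (-): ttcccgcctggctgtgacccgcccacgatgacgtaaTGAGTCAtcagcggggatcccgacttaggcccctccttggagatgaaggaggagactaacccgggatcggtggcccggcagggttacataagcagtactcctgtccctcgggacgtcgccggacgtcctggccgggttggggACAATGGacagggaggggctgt
Atf3 -6.39 kb, GFP- summit, chr1:191224324-191224523 (-): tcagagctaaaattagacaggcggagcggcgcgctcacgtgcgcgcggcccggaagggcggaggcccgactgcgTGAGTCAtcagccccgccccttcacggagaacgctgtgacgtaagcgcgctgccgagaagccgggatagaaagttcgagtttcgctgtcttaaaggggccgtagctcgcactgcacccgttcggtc

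The other genes had lower peaks away from their starts. The largest of Fosl2 was at +19.79 kb, in a UTR, at rank 86.8 in GFP- and 82.8 in GFP+. Batf, without a start peak, had 1 shared peak, in an intron 19 kb from its start (chr12:85704986-85706235 in GFP-), at ranks 83.9 and 74.2. The largest of Jdp2 were at +31.29 kb in an intron (83.7 in GFP-, and 79.4 in GFP+, where the summit was at +30.95 kb) and at -26.70 kb (79.6 in both). The largest of Jun was at -30.32 kb, inside the antisense gene Junos, at ranks 80.2 and 75.2 with the same summit base. Jund had a peak at -3.41 kb, at rank 54.0 in GFP- and 63.8 in GFP+. Junb had only a GFP- peak at rank 17.2 (-3.43 kb), which overlapped the edge of the GFP+ start peak, and a GFP+ peak at rank 7.45 (-5.02 kb).

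**Figure D2:**
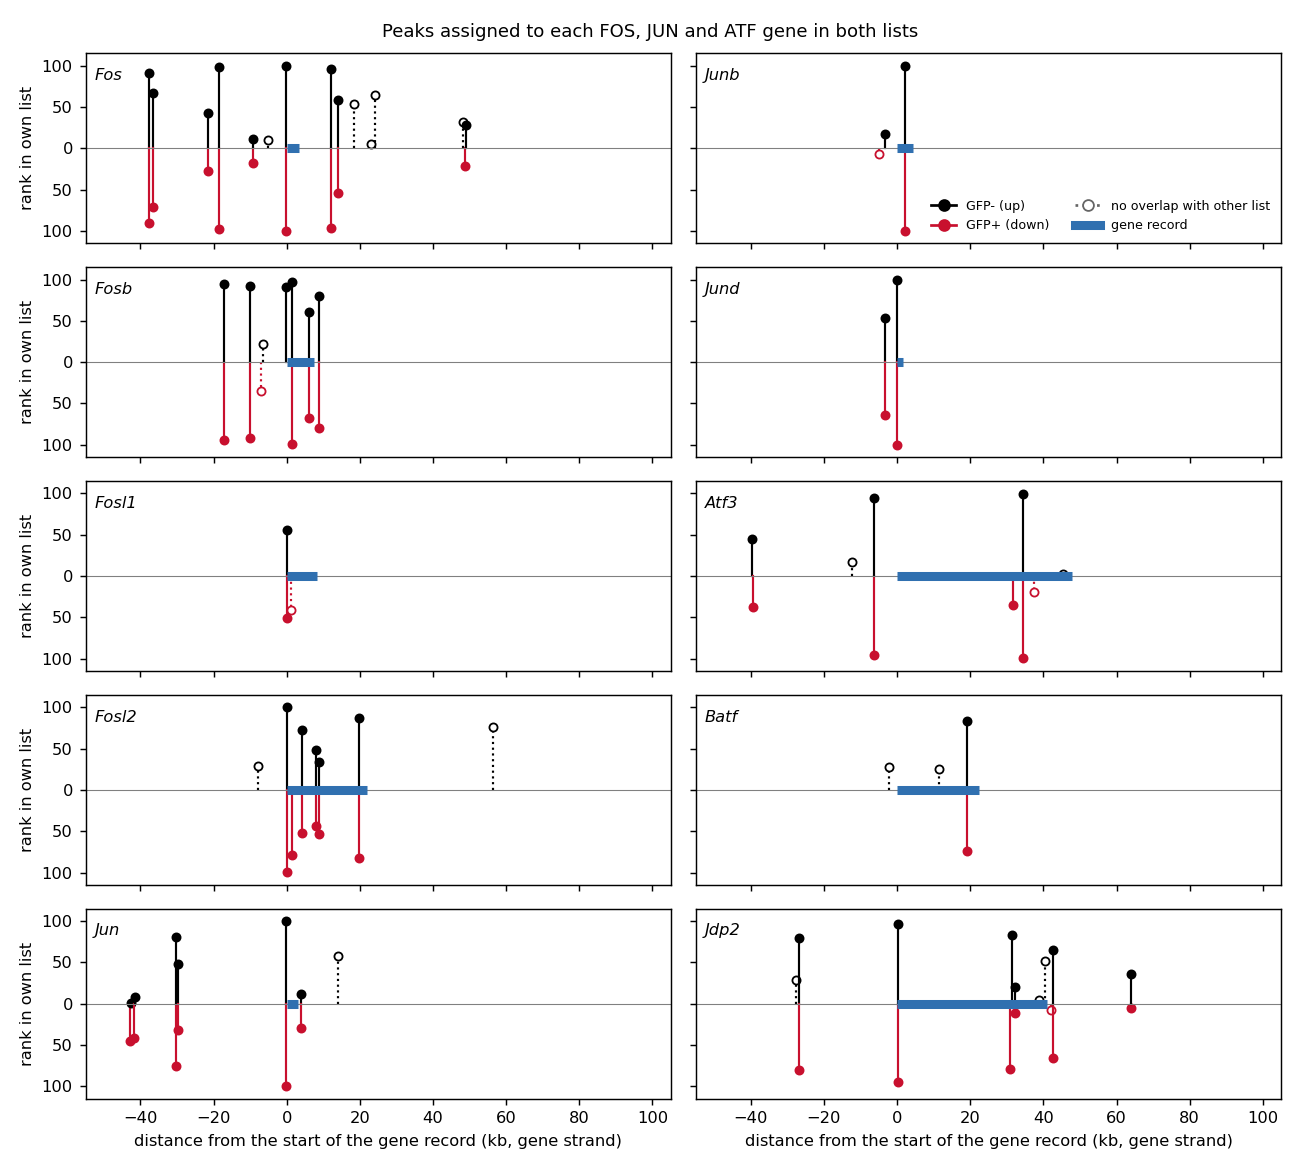
Peaks assigned to each of the 10 genes by the distance of their summit from the start of the gene record (kb, along the gene's strand), with the rank in the own list upward for GFP- (black) and downward for GFP+ (red). Open circles mark peaks that overlap no peak of the other list, and the blue bar is the gene record. The tall peaks are mirrored, and the open circles above rank 50 are all GFP-.

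Most of these peaks were shared between the lists to the extent found at other genes. Of the 48 GFP- peaks, 32 shared 1 bp or more with a GFP+ peak (66.7%, Wilson 95% interval 52.5 to 78.3), against 67.5% over all protein-coding genes. Of the 38 GFP+ peaks, 33 overlapped a GFP- peak (86.8%, 72.7 to 94.2), against 84.9%. The intervals cover counting error only. Since the GFP- list is longer, a share of GFP- peaks and one of GFP+ peaks are not on the same footing.

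Among peaks at or above rank 50, 5 of 24 in GFP- overlapped no GFP+ peak, against 15.4% of all such GFP- peaks, and 0 of 21 in GFP+ overlapped no GFP- peak, against 3.67%. The 5 lay at Fosl2 +56.41 kb (rank 75.9), Fos +24.10 kb (64.2), Jun +14.06 kb (57.3), Fos +18.36 kb (53.8) and Jdp2 +40.42 kb (51.4, in a UTR). The 4 outside a UTR are printed as the largest peaks near these genes that the other list lacks, and the capitals at Fosl2 mark an AP-1 word.
Fosl2 +56.41 kb, GFP- summit, chr5:32192111-32192310 (+): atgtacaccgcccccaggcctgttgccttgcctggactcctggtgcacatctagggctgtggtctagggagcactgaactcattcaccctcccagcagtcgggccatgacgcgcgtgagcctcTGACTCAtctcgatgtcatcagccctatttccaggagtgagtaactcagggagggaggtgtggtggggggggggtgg
Fos +24.10 kb, GFP- summit, chr12:85497885-85498084 (+): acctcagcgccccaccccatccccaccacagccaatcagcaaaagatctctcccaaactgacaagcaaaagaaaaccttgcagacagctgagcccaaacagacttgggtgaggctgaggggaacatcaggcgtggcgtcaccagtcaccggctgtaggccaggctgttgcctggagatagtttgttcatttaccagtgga
Jun +14.06 kb, GFP- summit, chr4:95038058-95038257 (-): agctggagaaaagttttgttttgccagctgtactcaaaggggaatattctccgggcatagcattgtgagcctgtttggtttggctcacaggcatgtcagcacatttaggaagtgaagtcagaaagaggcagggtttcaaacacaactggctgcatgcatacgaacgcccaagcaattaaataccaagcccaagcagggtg
Fos +18.36 kb, GFP- summit, chr12:85492150-85492349 (+): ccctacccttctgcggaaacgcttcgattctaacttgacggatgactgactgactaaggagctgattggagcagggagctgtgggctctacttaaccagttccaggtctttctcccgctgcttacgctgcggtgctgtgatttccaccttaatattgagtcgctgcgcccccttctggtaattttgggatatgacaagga
The other 3 windows held none of the words searched. In GFP+ the 5 peaks that overlapped no GFP- peak were small, at ranks 7.45 to 40.7. The largest of them, in an intron of Fosl1 at +1.23 kb (rank 40.7), and the next, at Fosb -6.92 kb (34.4), held an AP-1 word each, and the Fosb window also held the CRE variant, which is the second run of capitals there.
Fosl1 +1.23 kb, GFP+ summit, chr19:5448673-5448872 (+): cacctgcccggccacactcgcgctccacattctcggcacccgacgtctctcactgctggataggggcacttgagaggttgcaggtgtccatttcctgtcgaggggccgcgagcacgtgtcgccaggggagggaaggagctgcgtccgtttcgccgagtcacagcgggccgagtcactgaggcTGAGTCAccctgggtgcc
Fosb -6.92 kb, GFP+ summit, chr7:19316869-19317068 (-): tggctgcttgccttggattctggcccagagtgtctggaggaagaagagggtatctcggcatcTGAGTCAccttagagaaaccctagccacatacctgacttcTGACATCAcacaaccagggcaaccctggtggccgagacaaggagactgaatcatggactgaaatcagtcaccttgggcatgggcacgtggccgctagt

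When overlapping peaks of both lists were merged, the genes had 51 regions away from the record start, of which 30 held peaks of both lists, 16 of GFP- and 5 of GFP+ alone. With rank 0 where a list had no peak, the median difference, GFP+ minus GFP-, was -4.35 points against -5.04 over 64398 regions of all genes. The rank was lower in GFP+ in 36 of the 51 regions (70.6%, against 67.1% of all regions). It was lower by more than 20 points in 13 (25.5%, against 25.0%) and higher by more than 20 points in 5 (9.80%, against 8.28%). In the 30 regions present in both lists the median difference was -0.31 points, against -2.64 over all genes.

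Of the 5 regions that stood higher in GFP+ by more than 20 points, 2 lay at Jun and 1 each at Fosl2, Fosl1 and Fosb. At Jun -42.81 kb the rank was 0.90 in GFP- and 44.8 in GFP+, and at -41.62 kb it was 7.93 and 41.1, both inside Junos. A region +3.89 kb from the start of Jun, past the end of the record, had 11.9 and 29.2. Within Fosl2, the intronic region at +8.82 kb stood at 33.4 in GFP- and 53.5 in GFP+, while that at +4.11 kb stood at 72.0 and 51.8. At Jdp2 +64.05 kb the ranks were 36.5 and 5.51.

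**Figure D3:**
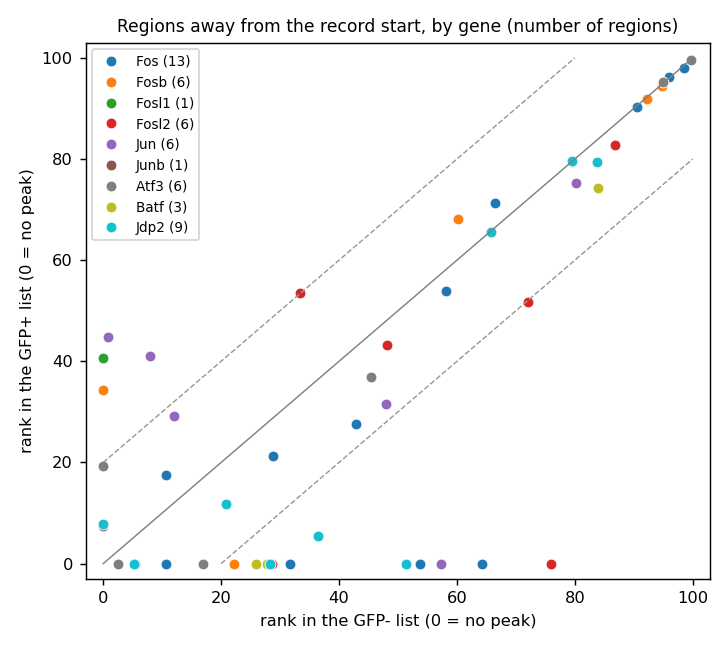
Rank of each of the 51 regions away from the record start in the GFP- list (horizontal) and the GFP+ list (vertical), coloured by gene, with 0 where a list has no peak. The solid line marks equal ranks and the dashed lines 20 points. Regions above rank 90 lie on the line, and those without a GFP+ peak spread along the lower axis up to rank 75.9.

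The words were then counted in the 200 bp summit windows of all peaks of these genes. The AP-1 word was in 6 of 57 GFP- windows (10.5%, 4.91 to 21.1), against 7.79% of all GFP- windows, and in 6 of 46 GFP+ windows (13.0%, 6.12 to 25.7), against 5.89% of all GFP+ windows. A CArG box was in 5 of 57 GFP- windows (8.77%, 3.81 to 18.9) against 1.12%, and in 4 of 46 GFP+ windows (8.70%, 3.43 to 20.3) against 1.08%. Of the start windows, 3 of 9 in GFP- and 2 of 8 in GFP+ held a CArG box, while 0.789% and 0.792% of the start windows of all genes held one. A CArG box was also in both windows at Fos +12.22 kb and in both at Jdp2 +42.72 kb. Each GFP+ window with a CArG box lay at a site that also had one in GFP-, so the shares of the lists are not separate counts. The start window with a CArG box in GFP- alone was that of Fosb, whose box lay within the GFP+ start peak but away from its summit. The intervals treat the peaks of a gene as independent and are no test. Of the GFP- peaks near these genes that overlapped no GFP+ peak, 1 of 16 held an AP-1 word, against 11.6% of all such GFP- peaks. Of the GFP+ peaks that overlapped no GFP- peak it was 2 of 5, against 6.24% of all such GFP+ peaks. The SOX17 word was in 4 of 57 GFP- windows (7.02%, 2.76 to 16.7), against 2.19% of all GFP- windows. In GFP+ it was in 3 of 46 windows (6.52%, 2.24 to 17.5), against 2.82%. A word is a match of letters and does not show that a factor was bound.

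**Figure D4:**
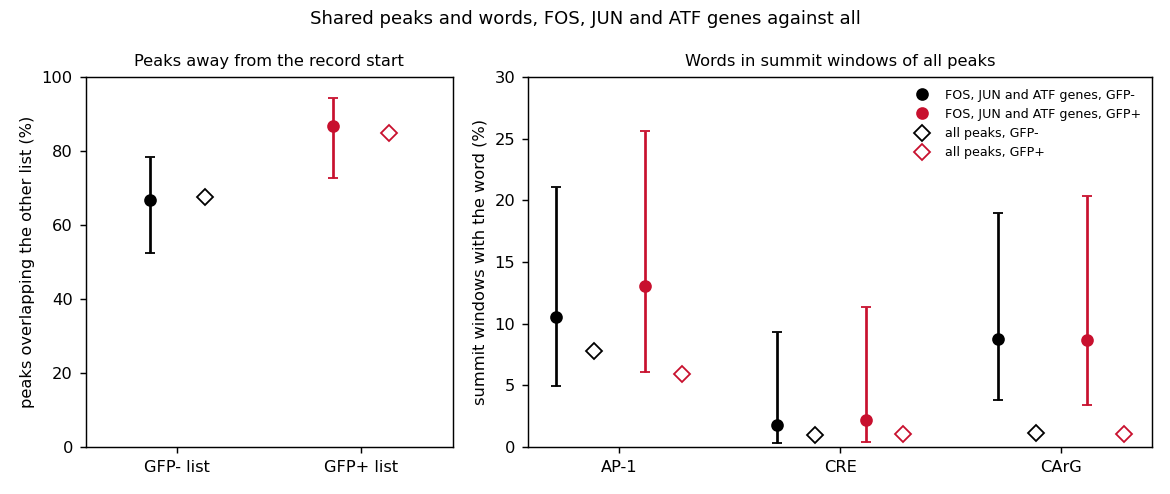
Left, share of peaks away from the record start that overlap the other list. Right, share of summit windows with an AP-1, CRE or CArG word. Circles are the peaks of the 10 genes, diamonds those of all protein-coding genes (left) or of the whole list (right), and bars are Wilson 95% intervals. The overlap shares of the 10 genes lie on those of all genes. The lower ends of the CArG intervals, 3.81% and 3.43%, lie above 1.12% and 1.08%, and that of AP-1 in GFP+, 6.12%, above 5.89%. The bars cover counting error only and are no test, since they treat neighbouring peaks as independent and the lists share sites.

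Other genes of the pathway were mostly open at their starts in both lists. Of 43 genes, 39 had a start peak in both lists, against 11704 of all 21755 protein-coding genes. The 39 genes had median ranks of 97.6 and 97.2, near the top of the scale, and a median difference of -0.13 points, against -0.83 over all genes. Of 16 other leucine zipper partners, 13 had start peaks, of 14 kinases and SRF or ELK factors 13, and of 13 other immediate early genes 13. Of the 39 genes, 2 differed by more than 20 points, against 9.81% of all genes. These were Batf3, a relative of Batf from dendritic cells, at 44.3 in GFP- and 17.1 in GFP+, and Mapk10, the JNK gene best known from neurons and heart, at 30.9 and 8.83. Srf itself had 99.90 and 99.87. Atf4, Maff, Mafg and Map2k1 had no peak at the record start, although Maff had one at another transcript start (96.9 and 96.7).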

How the data were processed

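The deposited data were ATAC-Seq peak lists of GFP- and GFP+ heart nuclei, 1 per population, called by the authors from both replicates together. Before deposit, the authors used fastp for trimming, bowtie2 for mapping to mm10, samtools for filtering and Picard for duplicates, brought the libraries to a like depth, and ran Genrich for peaks, leaving out the Y chromosome, mitochondrial DNA and the ENCODE blacklist. The submitters' processing notes name Bowtie2 2.3.5.1 and SAMtools 1.19. The deposited area is a signal of significance that the authors' caller summed over each peak, and it is not scaled between lists. The deposited score is area per bp times 1000, limited to 1000 by the authors' caller, and was not used further. The deposited −log10 p-value belongs to the summit. The number of peaks in a list also reflects the signal over background of its libraries, so ranks rather than areas were compared.

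Here, peaks were ranked by area within their list and joined to GENCODE M21 records. A start peak overlapped the 250 bp on either side of the start, and other peaks went to the nearest protein-coding gene within 50 kb. Sequences came from GRCm38.p6 and RefSeq. Summit windows in UTRs, among them that of the Fosl1 start, were not printed. All members were named, with each start peak, the largest other peak per list, unshared peaks at or above rank 50, and pathway genes that differed by more than 20 points. The members and lists were chosen with earlier results of these data known. The overlap, start, assignment and word steps were tested on simulated data. Python 3.11.15, pandas 2.3.3, numpy 2.4.6, scipy 1.17.1 and pysam 0.24.0 were used. The alternatives changed the start window and definition, the threshold, the ranking, the overlap, the flank, the assignment and the windows searched.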

Additional observations from a re-analysis of the deposited data

How the results depend on the processing

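The results were recomputed under 13 alternatives, 2 of them chosen after the data had been seen: leaving the peaks at other transcript starts out of those away from the start, and summing the areas over all start peaks of a gene. Of 41 recomputed values, 38 kept their direction and stayed within the interval of the reported value, or for counts within 1.5 times of it, 3 moved beyond it and 0 reversed. For the start difference of the 8 AP-1 genes that interval was the full range of their values, -4.70 to 2.54 points. Staying within it therefore says little about stability. Ranked by area per bp, the median start rank difference of the AP-1 genes was -5.99 points, with 6 of the 8 lower in GFP+, and that of the other pathway genes -0.81. Ranked by summit p-value the medians were -1.34 and -0.83, with all 8 AP-1 genes lower in GFP+. Over all genes the median start difference was -1.68 points by area per bp and -1.20 by summit p-value. With areas summed over the start peaks, the median of 9 genes was -0.08. The count of genes with a start peak ranged from 8 to 9. The shares of peaks overlapping the other list ranged from 60.4% to 71.1% in GFP- and from 76.3% to 89.2% in GFP+, and the AP-1 word was in 19.3% of GFP- and 23.9% of GFP+ peaks when whole peaks were searched, against 14.8% and 12.4% of all peaks, whose median lengths of 469 and 459 bp compare with 589 and 779 bp for these genes. No paired analysis was possible because each population has a single list made from both replicates, and for the same reason no replicate could be left out. With 8 to 51 genes or regions, shares and medians have wide intervals, and the depth of the libraries is not analysed here.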

Other observations

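The 13 other immediate early genes all had a start peak in both lists. At the record start, 5 stood at or above rank 99 in GFP- and 5 in GFP+, 4 of them in both lists, against 2.61% of all protein-coding genes in both. The median difference was -0.05 points, against -0.83 over all genes. These medians are not on the same footing, since the 13 stood near the top of the scale. Their median ranks were 98.3 in GFP- and 97.2 in GFP+, against 90.2 and 88.5 over all genes with a start peak. Egr1, a zinc finger factor induced by SRF, had ranks 99.87 in GFP- and 99.82 in GFP+, and Nr4a3, an orphan nuclear receptor, had 99.93 and 99.86. Dusp1, a phosphatase that switches off the kinases upstream of AP-1, had 85.6 and 83.2 at the record start, and 99.99 and 99.98 at its best annotated transcript start. Ier3 differed most among the 13, at 98.1 in GFP- and 87.0 in GFP+. Among the leucine zipper partners, Mafk was at 99.96 and 98.0 and Nfe2l2, the main factor of the oxidative stress response, at 99.75 and 99.64.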
